A study of Homo sapiens with 6 samples.

Results

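The DNA replication machinery was examined as a list of 47 genes for the proteins that mark, open and copy replication origins. The genes were chosen by name, not by their values, from the 58735 genes of the deposited expression table, and each was found in it. Earlier results of these data were known when they were chosen. All 47 were among the 16061 genes that passed the filter on low values, which asked for 3 or more libraries with an FPKM of 0.5 or above. The libraries came from RKO, an established cell line of human colorectal carcinoma grown in culture. Control cells (Vector) carried the lentiviral vector, and the other cells (LOC_OE) carried the full-length transcript of the long noncoding RNA LOC101927668 in it. Both were made as stable lines under puromycin, with 3 libraries each that the submitters call biological replicates, and nothing in the sources says whether each group was infected more than once. P-values therefore measure the spread between these libraries. The comparison of LOC_OE with Vector was made by the study to find genes that change with LOC101927668 in colorectal cancer cells.

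Chromosomal DNA is copied once in each cell cycle. In G1 phase the origin recognition complex (ORC), CDC6 and CDT1 load the ring-shaped MCM2-7 helicase onto origins, a step called licensing, which geminin blocks later in the cycle. In S phase kinases and loading factors join CDC45 and GINS to the MCM ring to form the active helicase, and DNA polymerases, the PCNA clamp, its loader RFC, the single-strand binding protein RPA and the enzymes of Okazaki fragment joining follow it. Many of these genes are known targets of E2F factors and are transcribed mainly in late G1 and S phase. In RNA from a whole culture, a change in the share of cells in a phase and a change in transcript per cell cannot be told apart.

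FPKM counts fragments on a gene relative to the length of its exons and to the size of the library. The 6 libraries held between 15008842 and 18410231 reads on genes, and the 47 genes had from 26 to 14927 reads in a library. The size each library was divided by, worked out from its FPKM, was not its total of reads on genes. It was 18763335, 18569332 and 18603282 in Vector replicates 1 to 3, against 17837954, 17048823 and 17053917 reads. In LOC_OE replicates 1 to 3 it was 16010292, 16036779 and 14692797, against 18410231, 16661108 and 15008842 reads. FPKM is thus larger in LOC_OE relative to reads on genes, most of all in replicate 1. The part of this in the results was not tested. Reads on LOC101927668 numbered 1, 1 and 0 in Vector replicates 1 to 3 and 231, 270 and 276 in LOC_OE replicates 1 to 3, which matches the labels. LOC_OE replicate 1 stood apart. Its log2(FPKM + 1) correlated with that of LOC_OE replicates 2 and 3 at Pearson's r = 0.983 and 0.981 across the genes of the table, against 0.989 between those replicates and 0.989 to 0.990 between Vector libraries. Its FPKM also summed to 360434, against 310012 and 305702 in the other LOC_OE libraries and 264150 to 280648 in Vector. Counts by list and by step are therefore also given without it. Of the epithelial markers, EPCAM, CDX2, KRT8 and KRT18 were present in all libraries, while CDH1 was listed at 0 and VIL1, KRT19 and KRT20 stayed under 0.5 FPKM. All 8 fibroblast and endothelial markers stayed under 0.5 FPKM, as did 4 of 5 immune markers, and CD68 ranged from 0.187 to 1.21 FPKM. The 8 epithelial markers summed to 39.4 to 41.5 FPKM in Vector and 48.4 to 89.6 in LOC_OE, the 5 immune markers to 0.812 to 1.21 and 0.187 to 0.713, and the part of such differences in the results was not tested. KRT18 alone had 67.5 FPKM in LOC_OE replicate 1, against 25.3 and 25.1 in replicates 2 and 3 and 18.1 to 19.8 in Vector. KRT8 had 9.02 FPKM in LOC_OE replicate 1, 13.3 and 13.7 in replicates 2 and 3, and 11.7 to 11.9 in Vector.

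The replication genes were higher in LOC_OE as a list. Of 47 genes, 46 had a log2 fold change above 0 and 1, ORC4, below 0, and their median log2 fold change was 0.50, against 0.02 over all genes tested. After rescaling to the same sum of FPKM, which moved the median of all genes to −0.18, the median of the list was 0.26 and ORC3, CDT1, CDC7, POLA2, RFC4 and RPA3 also turned below 0. At an adjusted p under 0.05 from limma, 19 genes rose and 0 fell, where 10.7% of all genes tested rose. With a fold change of at least 1.5 as well, which is what "called" means in the text, 16 genes were called higher, 34.0% of the list, where 4.63% of all genes tested were. No gene of the list was called lower, against 5.58% of all genes tested. Limma at an unadjusted p under 0.05 gave 29 genes higher and 0 lower. Limma voom on reads recovered from the FPKM gave 21 higher and 0 lower at an adjusted p under 0.05. The shares of all genes for these counts were not worked out, so they have no background beside them. Limma voom called 19 genes of the list higher, where it called 1026 of all 16061 genes. It used the library sizes behind the FPKM, so it is no check of that scaling. In 39 of the 47 genes (83.0%) every LOC_OE library lay above every Vector library, which held for 24.4% of all genes tested.

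The size of the difference varied between the LOC_OE libraries. The median log2 distance of the 47 genes from the Vector mean was 0.93 in LOC_OE replicate 1, 0.36 in replicate 2 and 0.31 in replicate 3, against 0.03, 0.01 and 0.01 over all genes tested. LOC_OE replicate 1 was the highest of the 6 libraries for 42 of the 47 genes (89.4%), and for 33.4% of all genes tested. Its FPKM exceeded the mean of the other LOC_OE libraries by a median of 1.504-fold. Replicates 2 and 3 alone lay above all Vector libraries for 39 genes (83.0%), against 32.4% of all genes. The median coefficient of variation of the 47 genes was 25.0% within LOC_OE and 5.22% within Vector.

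The median log2 fold change without LOC_OE replicate 1 was 0.31, and 31 of the 47 genes rose at an adjusted p under 0.05, against 19.8% of the genes then tested. The 19 genes that rose with all 6 libraries were all among these 31. With the fold change threshold 10 genes were called higher, all of them among the 16, where 4.5% of all genes were. No gene of the list fell at an adjusted p under 0.05 in that fit, against 16.8% of all genes, although 4 were below 0. The counts depended on each control library as well. Without Vector replicate 1, 2 or 3 only 2, 1 and 3 genes were called higher, while the median log2 fold change stayed between 0.50 and 0.51, and over all genes 272, 101 and 176 genes were then called higher in place of 743. Without LOC_OE replicate 2 or 3, 10 and 12 genes of the list were called higher, against 562 of 15638 and 754 of 15590 over all genes.

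**Figure D1:**
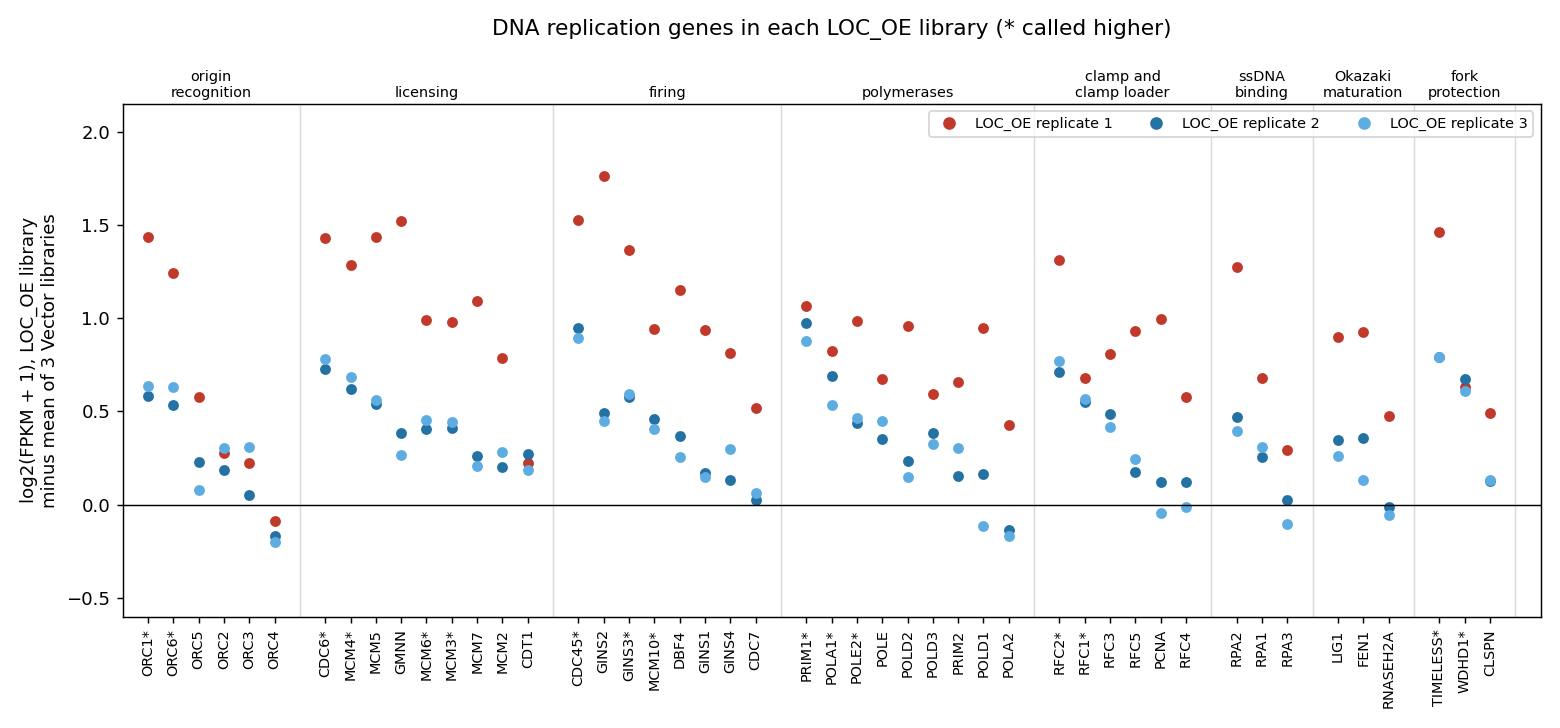
The log2(FPKM + 1) of each LOC_OE library minus the mean of the 3 Vector libraries is plotted for the 47 replication genes, grouped by step and ordered within a step by fold change, with one point for each LOC_OE library. Replicate 1 (red) is the highest of the LOC_OE libraries for 43 of the 47 genes, replicates 2 and 3 (blue) mostly lie above 0, and ORC4 is below 0 in all 3.

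Promoter sequence was examined because E2F factors and NF-Y are known to act at many replication genes. Of the 47 genes, 41 had an entry in the RefSeq promoter table (GRCh38.p14), which gives 250 bases before and 50 bases after a gene's start. MCM4, MCM5, GINS4, RPA2, RPA3 and POLD3 had none. The E2F words searched were TTTCGCGC, TTTGGCGC, TTTCCCGC and TTTGCCGC, and the NF-Y word was CCAAT, each on both strands. The 6 promoters below were chosen, with values known, to show the range: MCM6 holds the most E2F words, CDC6 and PCNA hold both kinds, CDC45 holds the most CCAAT words, and PRIM1 and WDHD1, which passed the test in the most fits that left out 1 library, hold no E2F word. They lie at chr2:135876394-135876693 (minus strand), chr17:40287629-40287928 (plus), chr20:5126573-5126872 (minus), chr22:19479670-19479969 (plus), chr12:56752274-56752573 (minus) and chr14:55027050-55027349 (minus), and are printed 5′ to 3′ along the gene. Capitals mark E2F and CCAAT words, the latter as ATTGG where the word is on the opposite strand.
MCM6: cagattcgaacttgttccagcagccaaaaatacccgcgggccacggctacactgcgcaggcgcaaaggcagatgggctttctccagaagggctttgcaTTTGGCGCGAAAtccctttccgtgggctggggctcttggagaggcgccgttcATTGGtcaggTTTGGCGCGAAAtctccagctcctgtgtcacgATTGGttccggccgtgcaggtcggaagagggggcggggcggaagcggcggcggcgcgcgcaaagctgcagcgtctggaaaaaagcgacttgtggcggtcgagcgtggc
CDC6: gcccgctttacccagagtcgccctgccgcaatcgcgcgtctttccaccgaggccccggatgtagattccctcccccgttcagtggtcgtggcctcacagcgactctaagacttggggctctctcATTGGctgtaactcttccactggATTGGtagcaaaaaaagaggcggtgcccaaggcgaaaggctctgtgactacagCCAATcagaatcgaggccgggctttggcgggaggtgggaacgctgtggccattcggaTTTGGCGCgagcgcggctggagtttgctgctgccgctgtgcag
PCNA: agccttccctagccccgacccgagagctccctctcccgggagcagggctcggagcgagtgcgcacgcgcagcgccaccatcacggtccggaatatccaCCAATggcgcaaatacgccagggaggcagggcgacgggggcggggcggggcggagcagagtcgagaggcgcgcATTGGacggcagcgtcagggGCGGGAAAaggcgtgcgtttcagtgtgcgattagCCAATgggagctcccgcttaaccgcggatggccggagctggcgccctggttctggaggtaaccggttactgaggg
CDC45: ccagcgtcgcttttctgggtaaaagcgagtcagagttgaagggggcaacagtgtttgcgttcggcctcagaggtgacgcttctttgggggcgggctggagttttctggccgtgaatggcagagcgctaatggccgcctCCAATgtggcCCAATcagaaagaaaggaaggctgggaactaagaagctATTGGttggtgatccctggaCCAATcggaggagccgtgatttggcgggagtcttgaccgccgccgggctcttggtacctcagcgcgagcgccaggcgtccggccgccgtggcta
PRIM1: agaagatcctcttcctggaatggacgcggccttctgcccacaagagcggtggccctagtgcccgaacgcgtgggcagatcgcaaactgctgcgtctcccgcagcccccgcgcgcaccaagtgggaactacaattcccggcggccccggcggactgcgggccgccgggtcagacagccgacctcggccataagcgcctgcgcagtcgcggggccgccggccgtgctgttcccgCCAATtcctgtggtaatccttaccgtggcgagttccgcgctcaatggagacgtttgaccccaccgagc
WDHD1: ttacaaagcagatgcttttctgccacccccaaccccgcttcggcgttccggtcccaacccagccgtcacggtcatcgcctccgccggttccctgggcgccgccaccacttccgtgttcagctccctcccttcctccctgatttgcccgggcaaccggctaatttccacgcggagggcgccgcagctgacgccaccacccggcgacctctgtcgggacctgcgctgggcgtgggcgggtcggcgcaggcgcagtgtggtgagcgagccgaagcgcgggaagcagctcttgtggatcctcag

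An E2F word was found in 18 of the 41 promoters (43.9%), against 3.33% of all 27305 promoters of the table and 4.44% of the 15843 protein-coding ones. CCAAT was found in 23 (56.1%), against 35.7% and 36.4%. Both words stood together in 11 (26.8%), against 1.29% and 1.88%, and 11 promoters, that of WDHD1 among them, held neither. Of the 24 E2F words, 16 were centred within 60 bases of the gene's start.

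The 4 members with more than one E2F word were all genes of the MCM ring, MCM2, MCM3, MCM6 and MCM7. In MCM6 the words formed pairs in which TTTGGCGC on the gene's strand overlapped TTTCGCGC on the other, at positions -152 to -141 and -90 to -79 from the start. MCM2 held TTTCGCGC on both strands at 3 to 14, again overlapping. In MCM7 the TTTCGCGC at -9 to -2 shared its last base with a CCAAT at -2 to 3. CDC6 held TTTGGCGC at 8 to 15, and PCNA held TTTCCCGC on the opposite strand at -59 to -52.

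The changes were set beside the presence of an E2F word as a description. Of 18 genes with the word, 6 were called higher and the median log2 fold change was 0.51. Of 23 without it, 9 were called higher and the median was 0.47. Without LOC_OE replicate 1 the medians were 0.35 and 0.28. Of the 6 genes with no promoter entry, 1 was called higher, and the median was 0.57, or 0.39 without that replicate. Over all genes tested, 4.63% were called higher, a share that was not worked out by E2F word. No test was made of these medians, and a missing word says only that these letters are not in this window.

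**Figure D2:**
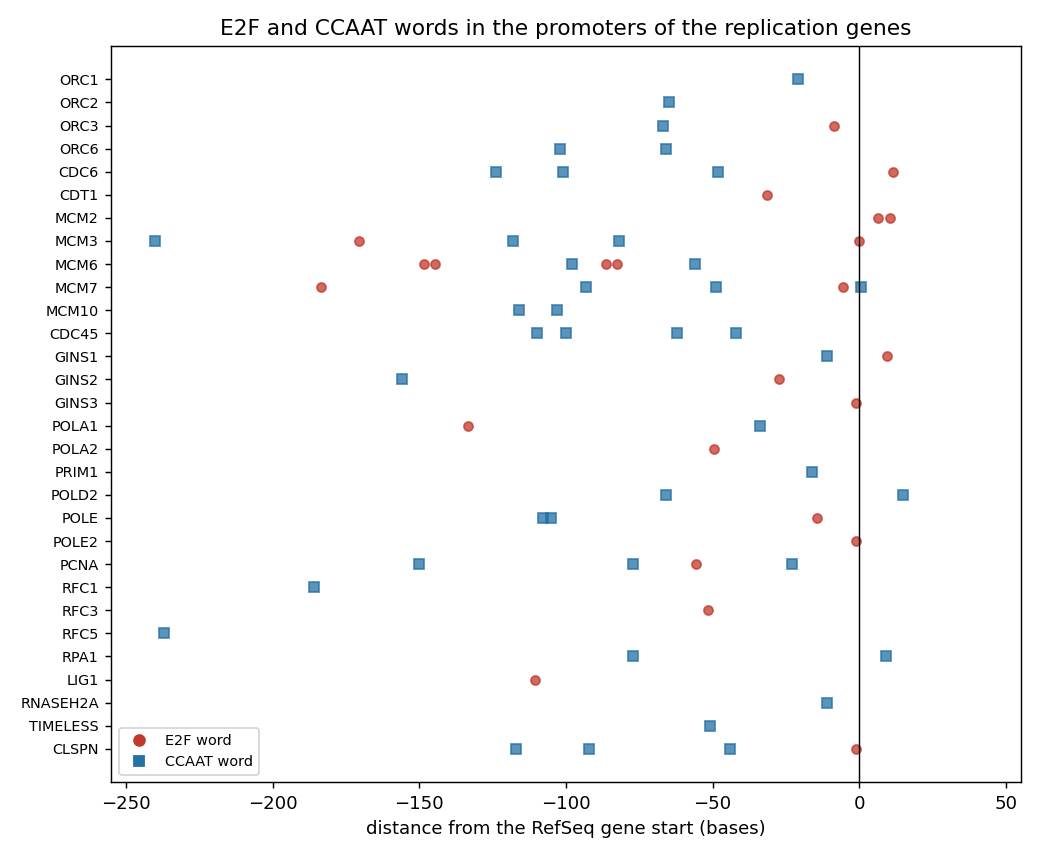
Positions of E2F words (red circles) and CCAAT words (blue squares) are plotted against the distance in bases from the RefSeq gene start for the 30 of 41 promoters that hold at least one. Most of the E2F words, 16 of 24, sit within 60 bases of the start, and MCM6 and CDC45 hold the most E2F and CCAAT words, 4 each.

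Over all genes tested, 10.7% rose at an adjusted p under 0.05 and 4.63% were called higher, for comparison in each step below. Every LOC_OE library lay above every Vector library in 24.4%. Without LOC_OE replicate 1, 19.8% rose and 4.5% were called higher. ORC1 and ORC6 were called higher among the 6 subunits of the origin recognition complex, and ORC4 was the one gene of the list with a log2 fold change below 0. The median of the subunits was 0.28, or 0.21 without LOC_OE replicate 1, when 3 rose and ORC1 alone was called. ORC1, the ATPase subunit whose level is known to vary through the cell cycle, had 11.1, 9.77 and 8.51 FPKM in Vector replicates 1 to 3 and 28.1, 15.1 and 15.7 FPKM in LOC_OE replicates 1 to 3, the order used throughout. Its log2 fold change was 0.89 (adjusted p = 0.0458, standard error 0.24), and 0.61 without LOC_OE replicate 1. ORC6, the smallest subunit, had 7.41, 7.01 and 7.22 FPKM in Vector and 18.4, 10.9 and 11.7 FPKM in LOC_OE, a log2 fold change of 0.80 (adjusted p = 0.0305, standard error 0.19). In both genes all LOC_OE libraries lay above all Vector libraries and LOC_OE replicate 1 was far above the others. Without that library ORC6 gave a log2 fold change of 0.58 at an adjusted p of 0.00178, just under the fold change threshold of 0.585 on this scale.

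The other ORC subunits did not pass the test. ORC2 (log2 fold change 0.26), ORC3 (0.19) and ORC5 (0.29) had adjusted p of 0.0684, 0.176 and 0.175, and in each the LOC_OE libraries lay above the Vector libraries. ORC4, a subunit of the complex's ATPase core, had 4.56, 4.95 and 5.06 FPKM in Vector and 4.51, 4.20 and 4.10 FPKM in LOC_OE. Here every LOC_OE library was below every Vector library, and LOC_OE replicate 1 was the closest to Vector, but the log2 fold change of −0.15 (standard error 0.08) had an adjusted p of 0.225. In Vector cells, ORC5 was the most abundant subunit per length at 12.9 ± 0.592 FPKM (SD, n = 3) and ORC4 the least at 4.86 ± 0.263. ORC1 and ORC3 overlapped in that order, and the range from highest to lowest subunit was 2.66-fold in Vector and 4.59-fold in LOC_OE.

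Licensing genes were all above 0. In each of the 9 every LOC_OE library lay above every Vector library, which held for 24.4% of all genes tested. CDC6, MCM3, MCM4 and MCM6 were called higher, and their median on the log2 scale was 0.62, or 0.43 without LOC_OE replicate 1, when all 9 rose at an adjusted p under 0.05 and CDC6 and MCM4 were called. CDC6, the ATPase that brings the MCM ring to ORC, had 10.3, 10.8 and 10.9 FPKM in Vector and 30.5, 18.3 and 19.0 FPKM in LOC_OE. Its level was about equal in the Vector libraries and higher in each LOC_OE library, with a log2 fold change of 0.98 (adjusted p = 0.0194, standard error 0.19) and of 0.75 without replicate 1. CDT1, its partner in loading, gave a log2 fold change of 0.23 (adjusted p = 0.0827), and it was among the genes in which LOC_OE replicate 1 did not stand out, at 0.994 times the mean of replicates 2 and 3. Geminin (GMNN), the inhibitor of CDT1, was the reverse case. It had 8.55, 8.31 and 9.16 FPKM in Vector and 26.7, 11.6 and 10.6 FPKM in LOC_OE, so that replicate 1 was 2.40 times the mean of the others, and its log2 fold change of 0.72 did not pass (adjusted p = 0.160).

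Within the MCM ring, MCM4 and MCM5 had the largest log2 fold changes, in an order that turned with a pseudocount of 0.1. The level of MCM4 was 46.1, 42.9 and 42.2 FPKM in Vector and 108, 67.8 and 70.8 FPKM in LOC_OE, a log2 fold change of 0.86 (adjusted p = 0.0237, standard error 0.18), and 0.65 without replicate 1. MCM6 had 32.8, 30.6 and 30.9 FPKM in Vector and 63.3, 41.9 and 43.5 FPKM in LOC_OE, with a log2 fold change of 0.62 (adjusted p = 0.0431, standard error 0.16). In both genes the LOC_OE libraries lay above those of Vector without overlap, and without replicate 1 only MCM4 kept a fold change past 1.5. MCM3 rose with a log2 fold change of 0.61 (adjusted p = 0.0475), or 0.43 without replicate 1. MCM5, MCM7 and MCM2 did not pass, at 0.84, 0.52 and 0.42 on the log2 scale (adjusted p = 0.0540, 0.171 and 0.107). The LOC_OE libraries of MCM5 were further apart than those of MCM4: its replicate 1 was 1.90 times the mean of replicates 2 and 3, against 1.56 for MCM4.

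The products of the MCM genes form a ring with one copy of each, but their transcripts were not equal in level. In Vector cells MCM7 had 99.3 ± 5.19 FPKM, MCM4 43.7 ± 2.07, MCM6 31.5 ± 1.20, MCM2 25.0 ± 0.377, MCM3 20.7 ± 1.64 and MCM5 9.85 ± 0.590 (SD, n = 3), and no neighbours in this order overlapped. The range from MCM7 to MCM5 was 10.1-fold in Vector and 7.69-fold in LOC_OE. MCM7 shares 8.94% of its exon bases with AP4M1 on the opposite strand and MCM2 shares 23.6% with AC023593.1 and TPRA1, and since no source gives the strand of the reads, some of their reads could belong to those genes.

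Of the 8 firing genes CDC45, MCM10 and GINS3 were called, their median on the log2 scale was 0.60, and without LOC_OE replicate 1 it was 0.37, when 5 rose and CDC45 and GINS3 were called. CDC45 had the largest log2 fold change of the whole list with all 6 libraries, and was next to PRIM1 without that replicate. CDC45, which joins the MCM ring when an origin fires, had 10.4, 9.22 and 9.33 FPKM in Vector and 29.6, 19.5 and 18.8 FPKM in LOC_OE. Each LOC_OE library was well above each Vector library, and replicates 2 and 3 were close to each other. The log2 fold change was 1.12 (adjusted p = 0.0115, standard error 0.18), and 0.92 without replicate 1. MCM10, which acts as the helicase is activated, had 11.4, 9.97 and 9.84 FPKM in Vector and 20.9, 14.6 and 14.1 FPKM in LOC_OE, a log2 fold change of 0.60 (adjusted p = 0.0412, standard error 0.16) that was 0.43 without replicate 1. It was higher in all LOC_OE libraries, but lost its fold change of 1.5 without that library.

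The GINS subunits, the other partner of the active helicase, had a range of values. GINS3 had 4.08, 3.37 and 3.39 FPKM in Vector and 10.8, 5.88 and 5.93 FPKM in LOC_OE and was called, with a log2 fold change of 0.84 (adjusted p = 0.0423, standard error 0.22), or 0.59 without replicate 1. GINS2 had 12.2, 11.6 and 11.4 FPKM in Vector and 42.1, 16.9 and 16.4 FPKM in LOC_OE, where replicate 1 was 2.53 times the mean of the others, the highest such ratio of the list. Its log2 fold change of 0.90 had a standard error of 0.34 and did not pass (adjusted p = 0.112), while it was 0.47 with an adjusted p of 0.00235 without replicate 1. GINS1 and GINS4 had log2 fold changes of 0.42 and 0.42 and did not pass the test (adjusted p = 0.225 and 0.143). The kinase CDC7, which phosphorylates the MCM ring, gave a log2 fold change of 0.20 with overlapping groups, and DBF4, its activating subunit, one of 0.59 (adjusted p = 0.354 and 0.123). Of these genes GINS4 shares 23.6% of its exon bases and GINS3 10.9% with genes on the opposite strand.

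**Figure D3:**
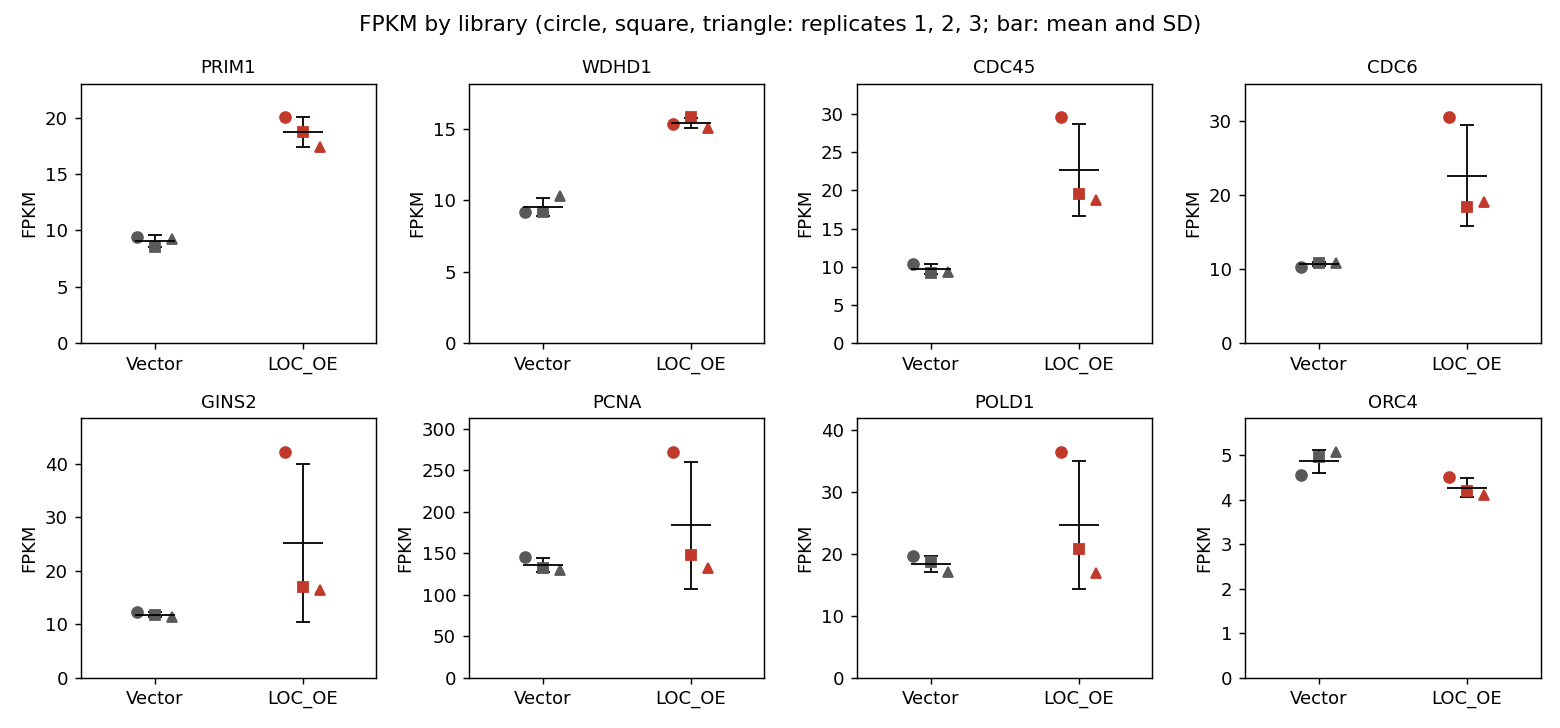
FPKM of 8 replication genes is plotted for each of the 3 Vector (grey) and 3 LOC_OE (red) libraries, with symbols for the replicate number and bars for the mean and SD, on axes that start at 0. PRIM1, WDHD1, CDC45 and CDC6 are higher in all 3 LOC_OE libraries, GINS2, PCNA and POLD1 are led by LOC_OE replicate 1, and ORC4 is slightly lower in LOC_OE.

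Of the 9 polymerase genes 5 rose, 3 were called (PRIM1, POLA1 and POLE2) and their median on the log2 scale was 0.45. Without LOC_OE replicate 1 it was 0.35, 5 rose, and PRIM1 and POLA1 were called. Of the 9, PRIM1 and POLA1 had the lowest ratios of LOC_OE replicate 1 to the mean of replicates 2 and 3, 1.11 and 1.18. PRIM1, the catalytic subunit of the primase that makes the RNA primers, had 9.43, 8.49 and 9.24 FPKM in Vector and 20.0, 18.7 and 17.4 FPKM in LOC_OE. The LOC_OE libraries lay close together and well above Vector. The log2 fold change was 0.97 (adjusted p = 0.00374, standard error 0.09), and 0.92 without replicate 1. It was the only gene of the list that stayed below an adjusted p of 0.05 in each of the 6 fits that left out 1 library. PRIM1 shares 21.6% of its exon bases with other genes, 16.2% on the same strand (AC117378.1, HSD17B6 and NACA take part), so that reads could be split between them.

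POLA1, the catalytic subunit of polymerase alpha, which extends those primers, had 5.27, 5.39 and 5.57 FPKM in Vector and 10.4, 9.35 and 8.27 FPKM in LOC_OE. All LOC_OE libraries were again above all Vector libraries, and the log2 fold change was 0.68 (adjusted p = 0.00904, standard error 0.10), or 0.61 without replicate 1. The other subunits of the complex did not pass. PRIM2, the large primase subunit, gave a log2 fold change of 0.37 (adjusted p = 0.104). POLA2, the accessory subunit, had one of 0.04 (adjusted p = 0.895) and its groups overlapped, at 1.96 ± 0.237 FPKM in Vector and 2.10 ± 0.763 in LOC_OE (SD, n = 3). POLA2 shares 35.1% of its exon bases with AP000944.2 on the same strand. The range from PRIM1 to POLA2 was 4.61-fold in Vector and 8.93-fold in LOC_OE.

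Of the polymerases that copy the bulk of the DNA, POLE and POLE2 of polymerase epsilon, the leading strand enzyme, rose, and of polymerase delta, the lagging strand enzyme, POLD3 rose and POLD1 and POLD2 did not pass. The small epsilon subunits POLE3 and POLE4, from the list of other replication genes, did not pass either, at 0.56 and 0.50 on the log2 scale (adjusted p = 0.205 and 0.373). POLD4, the small delta subunit from that list, was called lower, at −0.65 (adjusted p = 0.0166). POLE2 had 7.23, 6.71 and 6.69 FPKM in Vector and 14.6, 9.66 and 9.88 FPKM in LOC_OE, with no overlap and a log2 fold change of 0.63 (adjusted p = 0.0373, standard error 0.16), or 0.45 without replicate 1. POLE, the catalytic subunit, gave a log2 fold change of 0.49 (adjusted p = 0.0235) and the accessory subunit POLD3 one of 0.43 (adjusted p = 0.0281), both less than the fold change threshold. POLD2, another accessory subunit, stood at 0.45 on the same scale (adjusted p = 0.192). POLD1, the catalytic subunit of polymerase delta, had 19.6, 18.6 and 17.1 FPKM in Vector and 36.4, 20.8 and 16.9 FPKM in LOC_OE, so that only replicates 1 and 2 were above Vector. The log2 fold change was 0.33 (adjusted p = 0.405), and 0.02 without replicate 1. POLD1 shares 8.64% of its exon bases with AC020909.1 on the same strand. The difference between the changes of the enzymes' genes was not tested.

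PCNA, the sliding clamp and the most abundant transcript of the list, did not pass the test. It had 146, 132 and 129.9 FPKM in Vector and 272, 148 and 132 FPKM in LOC_OE. LOC_OE replicate 1 was far above Vector, replicate 2 just above it and replicate 3 inside its range, and the log2 fold change of 0.36 (adjusted p = 0.379) was 0.04 without replicate 1. PCNA has 3 named pseudogenes in the annotation, which reached at most 0.237 FPKM.

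The clamp loader RFC places PCNA on primed DNA, and RFC1, RFC2 and RFC3 rose. Over PCNA and the RFC genes the median on the log2 scale was 0.51, or 0.33 without LOC_OE replicate 1, when 4 of 6 rose and RFC2 alone was called. RFC1, the large subunit, had 11.5, 11.8 and 13.1 FPKM in Vector and 20.0, 18.2 and 18.4 FPKM in LOC_OE, a log2 fold change of 0.60 (adjusted p = 0.00932, standard error 0.09). The LOC_OE libraries agreed closely, and without replicate 1 the value was 0.56. RFC2 had 18.4, 17.9 and 16.0 FPKM in Vector and 44.7, 29.1 and 30.4 FPKM in LOC_OE, with replicate 1 above the rest and a log2 fold change of 0.93 (adjusted p = 0.0166, standard error 0.17), or 0.74 without it. RFC3 gave a log2 fold change of 0.57 (adjusted p = 0.0252), below the fold change threshold. RFC5 and RFC4 stood at 0.45 and 0.23 on that scale and did not pass (adjusted p = 0.161 and 0.349), and RFC4 overlapped between groups. In Vector cells the RFC genes lay within a 1.59-fold range, from 17.4 ± 1.28 FPKM for RFC2 to 11.0 ± 0.723 for RFC3 (SD, n = 3), and of neighbours in this order only RFC4 and RFC1 did not overlap.

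No gene of the RPA complex, which coats single-stranded DNA, and none of the Okazaki fragment group passed limma at an adjusted p under 0.05. At an unadjusted p under 0.05, 2 of 3 and 1 of 3 were higher, and limma voom gave 1 and 0 at an adjusted p under 0.05. The shares of all genes for these counts were not worked out. The median log2 fold changes of the RPA and Okazaki fragment genes were 0.41 and 0.47. Without LOC_OE replicate 1 these were 0.28 and 0.24, 2 and 1 genes rose, and none was called. RPA2 had 26.8 ± 1.72 FPKM in Vector and 46.3 ± 17.2 in LOC_OE (SD, n = 3), a log2 fold change of 0.71 (adjusted p = 0.0774) that was 0.43 (adjusted p = 0.00535) without replicate 1. RPA1, the large subunit, gave a log2 fold change of 0.41 (adjusted p = 0.0782) and RPA3, the small one, 0.07 (adjusted p = 0.693). FEN1, the nuclease that trims the flaps of Okazaki fragments, gave a log2 fold change of 0.47, and LIG1, the ligase that seals them, 0.50 (adjusted p = 0.142 and 0.0853). In both, the LOC_OE libraries lay above the Vector libraries. RNASEH2A, the catalytic subunit of an enzyme that removes RNA from RNA:DNA hybrids, was the lowest gene of the list at 0.549 ± 0.150 FPKM in Vector and 0.721 ± 0.370 in LOC_OE (SD, n = 3), with overlapping groups and a log2 fold change of 0.14 (adjusted p = 0.627). It shares 30.8% of its exon bases with THSD8 on the same strand, so that reads could be split between these genes.

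Of the 3 fork protection genes, TIMELESS and WDHD1 were called with and without LOC_OE replicate 1, and the median log2 fold change was 0.64 in both fits. TIMELESS, which travels with the fork and links it to the checkpoint, had 12.4, 11.7 and 12.1 FPKM in Vector and 34.9, 21.6 and 21.6 FPKM in LOC_OE. LOC_OE replicates 2 and 3 were alike and both far above the Vector libraries, and the log2 fold change was 1.02 (adjusted p = 0.0168, standard error 0.19), or 0.79 without replicate 1. WDHD1, which ties polymerase alpha to the helicase, had 9.21, 9.17 and 10.3 FPKM in Vector and 15.3, 15.8 and 15.1 FPKM in LOC_OE. Here replicate 1 was 0.991 times the mean of the others, and the log2 fold change of 0.64 (adjusted p = 0.00705, standard error 0.08) was 0.64 without it. WDHD1 passed in 5 of the 6 fits that left out 1 library. CLSPN (claspin), the adaptor of the checkpoint kinase CHK1, gave a log2 fold change of 0.25 (adjusted p = 0.177).

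**Figure D4:**
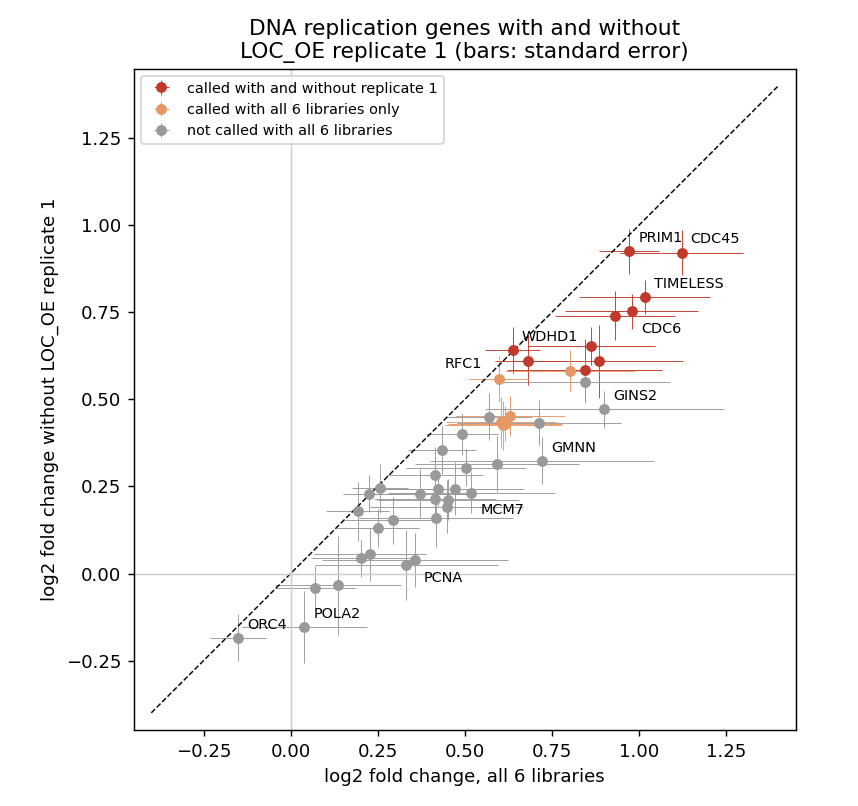
The log2 fold change of each of the 47 genes with all 6 libraries (horizontal axis) is plotted against that without LOC_OE replicate 1 (vertical axis), with standard errors as bars and a dashed line where the values are equal. WDHD1, PRIM1 and RFC1 lie near the line, GINS2, GMNN and PCNA lie well below it, and the 10 genes called in both fits are in red.

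Other genes that act in replication, a list of 30 that shares no gene with the 47, were above 0 in 28 cases. Of them, 9 rose and 1 fell at an adjusted p under 0.05, 5 were called higher and 1 lower, where 10.7% of all genes rose, 4.63% were called higher and 5.58% lower, and their median on the log2 scale was 0.36, or 0.20 without LOC_OE replicate 1, when 12 rose and 2 fell (19.8% and 16.8% of all genes), 3 were called higher and 0 lower. DSCC1, part of an alternative clamp loader, had 10.2, 9.87 and 10.8 FPKM in Vector and 34.1, 21.5 and 20.9 FPKM in LOC_OE, a log2 fold change of 1.20 (adjusted p = 0.0115, standard error 0.19). TIPIN, the partner of TIMELESS, had 6.02, 5.28 and 5.78 FPKM in Vector and 15.6, 11.4 and 9.54 FPKM in LOC_OE, a log2 fold change of 0.95 (adjusted p = 0.0151, standard error 0.17). In both genes the groups were well separated, and TIPIN shares 21.0% of its exon bases with RPL9P25 on the same strand. RECQL4, a helicase needed for origin firing, had 24.4, 24.1 and 23.2 FPKM in Vector and 62.0, 39.3 and 35.5 FPKM in LOC_OE, a log2 fold change of 0.86 (adjusted p = 0.0310, standard error 0.20). MCMBP, which binds MCM proteins, gave a log2 fold change of 0.69 (adjusted p = 0.0130) and MTBP, a partner of the firing factor TICRR, 0.62 (adjusted p = 0.0138). POLD4, the small subunit of polymerase delta, went the other way, with 3.46, 3.46 and 3.35 FPKM in Vector and 1.39, 2.004 and 2.10 FPKM in LOC_OE. Every LOC_OE library lay below every Vector library, and the log2 fold change was −0.65 (adjusted p = 0.0166, standard error 0.12), or −0.54 without replicate 1. POLD4 shares 21.3% of its exon bases with AP003419.1 on the same strand, so that reads could be split between them.

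Among the 10 E2F and DP genes, E2F3 and TFDP1 rose at an adjusted p under 0.05 and TFDP1 alone was called. Over all genes tested, 10.7% rose and 4.63% were called higher. TFDP1, the dimer partner of E2F factors, had 34.5, 30.3 and 29.8 FPKM in Vector and 74.9, 48.3 and 46.4 FPKM in LOC_OE, all above Vector, with a log2 fold change of 0.79 (adjusted p = 0.0339, standard error 0.19), or 0.57 without replicate 1. E2F3 gave a log2 fold change of 0.36 (adjusted p = 0.0360). The median of the 10 genes was 0.32, and 0.27 without replicate 1, when 6 rose, against 19.8% of all genes, and 0 were called, against 4.5%.

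Mitosis genes, many of them known to peak in G2 and M phase, were as a list above the Vector mean in LOC_OE replicate 1 and near it in replicates 2 and 3. Of 30 listed, 29 were tested (PRC1 did not pass the filter), and 1 was called higher and 1 lower. Over all genes tested, 4.63% were called higher and 5.58% lower. Their median log2 distance from the Vector mean was 0.84 in LOC_OE replicate 1, −0.05 in replicate 2 and −0.01 in replicate 3, where the 47 replication genes had 0.93, 0.36 and 0.31. The median log2 fold change of the mitosis genes was 0.25 with all libraries and −0.03 without replicate 1, when 6 rose (20.7%) and 8 fell (27.6%) at an adjusted p under 0.05, against 19.8% and 16.8% of all genes in that fit, so that the share rising was near the background. MAD2L1, a spindle checkpoint protein, had 11.6, 10.4 and 11.7 FPKM in Vector and 32.7, 18.3 and 18.9 FPKM in LOC_OE, a log2 fold change of 0.94 (adjusted p = 0.0299, standard error 0.22). CDC25C, the phosphatase that activates CDK1 for entry into mitosis, had 6.77, 5.89 and 5.83 FPKM in Vector and 3.76, 2.88 and 2.81 FPKM in LOC_OE, a log2 fold change of −0.79 (adjusted p = 0.00991, standard error 0.12). It was lower in every LOC_OE library, replicate 1 included. The replication and mitosis lists were described by their medians and not tested against each other, and the part that the make-up of LOC_OE replicate 1 has in the larger values was not tested.

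**Figure D5:**
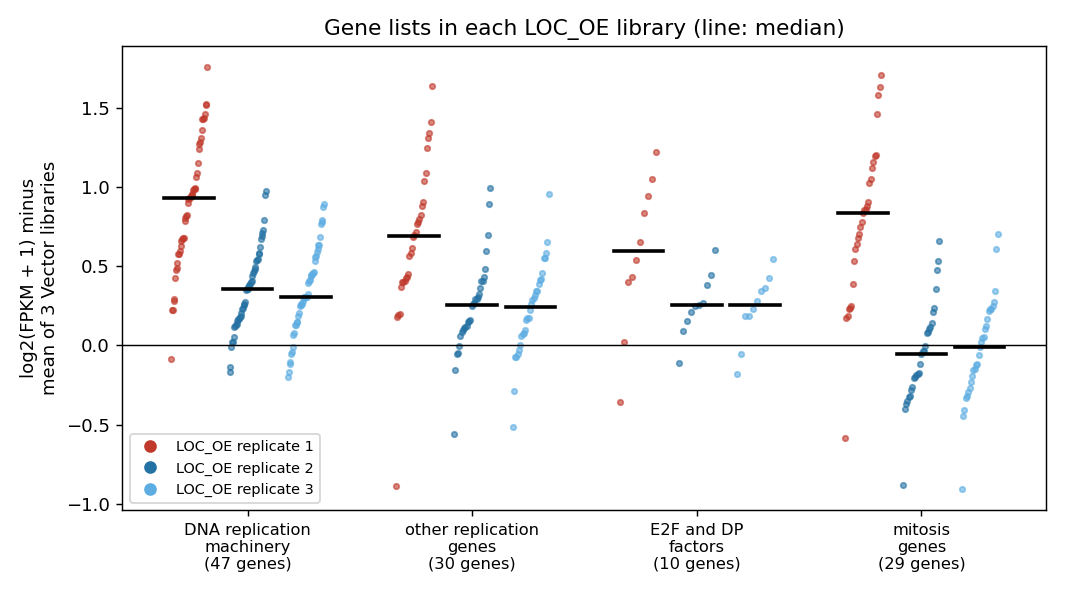
The log2(FPKM + 1) minus the Vector mean is plotted for each gene of 4 lists in LOC_OE replicates 1 (red), 2 and 3 (blue), with the median of each library as a black line. The replication genes have medians of 0.93, 0.36 and 0.31, and the mitosis genes 0.84, −0.05 and −0.01.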

How the data were processed

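RNA was extracted with Trizol, and a company made libraries with NEBNext Ultra reagents and read them from both ends on a NovaSeq instrument. The submitters' processing notes name HISAT2 2.0.4, StringTie 1.3.0 and hg38, with no roles. The authors deposited 1 table of FPKM for 58735 genes in 6 libraries, whose identifiers all matched GENCODE version 29, with 0 unused value columns. FPKM times the merged exon length gave whole reads for 100% of values, within 0.05 of a read, which gave the totals per library. The reads carry no molecular identifiers.

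Genes that reached an FPKM of 0.5 in 3 or more libraries were tested with limma 3.58.1 in R 4.3.3 on log2(FPKM + 1) with a variance trend, and p-values were adjusted after Benjamini and Hochberg over all genes tested. The pseudocount of 1 makes the fold changes of low genes too small. The threshold of 1.5 is that of the study. With 3 libraries a group, the smallest p of an exact permutation test would be 0.1. The fit was also run on simulated data in which both groups had the same spread and no library stood apart. It therefore does not cover the wider spread within LOC_OE.

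The replication genes, the other lists, the markers and the tests were chosen with earlier results of these data known. Every gene of the list is named, and values per library are given for the 3 called genes with the smallest adjusted p in each step, any gene below 0, and the called genes with the largest changes in the other lists. Library values of GMNN, GINS2, POLD1 and PCNA were added after they were seen, and the search for words was made in RefSeq promoters. Alternatives were a pseudocount of 0.1, other filters and scalings, no variance trend, array weights, a replicate block, unadjusted p-values, a fold change of 2, limma voom on the recovered reads and leaving out each library. Removal of each library's trend with GC content used the longest transcript of each gene and was set after seeing the data. A search for motifs in proteins was planned and not run. The plots were made in Python 3.11.15 (matplotlib 3.10.9).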

Additional observations from a re-analysis of the deposited data

How the results depend on the processing

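Leaving out 1 library gave 1 to 12 genes of the list called higher in place of 16, and 1 to 31 with an adjusted p under 0.05 in place of 19. Over all genes, 101 to 754 were called higher in those fits, in place of 743. Array weights, which gave LOC_OE replicate 1 the lowest weight of 0.104, gave 10 called and 34 rising, with 1 falling. Of all 16061 genes in that fit, 935 were called higher. No filter on low FPKM gave 8 called and 10 rising, with 507 of all 31123 genes then called higher. A fold change of at least 2 gave 2 called, and unadjusted p-values gave 29 rising. The shares of all genes at those thresholds were not counted. Rescaling each library to the same sum of FPKM gave 8 called and 1 falling. It moved the median of all genes to −0.18 and that of the list to 0.26, and over all genes gave 259 calls higher and 1795 lower in place of 743 and 896. The replicate block gave 16 called and 17 rising, and 12 and 16 with the GC trend removed. Over all genes, these fits called 696 of 16061 and 615 of 16054 higher. Deviations of libraries with the same replicate number correlated at 0.111, −0.0338 and 0.117, so the numbers were not taken to pair the libraries. The median of the list stayed above 0 in all 18 other fits, from 0.26 to 0.63. CDC6, CDC45, POLA1, PRIM1, RFC1, RFC2, TIMELESS and WDHD1 passed in all 12 fits that kept the 6 libraries. Signs turned for genes near 0: with the same sum of FPKM, ORC3 had −0.0448, CDT1 −0.0312, CDC7 −0.0404, POLA2 −0.140, RFC4 −0.0201 and RPA3 −0.158. CDT1 had −0.0448 after quantile normalization and POLA2 −0.145 with array weights. Leaving out 1 library gave −0.154 to 0.145 for POLA2 (−0.0211 without Vector replicate 3), −0.0408 to 0.159 for RPA3 and −0.0343 to 0.232 for RNASEH2A, the lowest of each without LOC_OE replicate 1. The causes were not tested.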
